A study of Mus musculus with 6 samples.

Results

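The translation factors described here are the genes of the count table whose symbols name initiation factors 1 to 6 (Eif1 to Eif6), elongation factors 1 and 2 (Eef1 and Eef2), the release factors Etf1, Gspt1 and Gspt2, and the poly(A)-binding proteins Pabpc1 and Pabpc4. The kinases Eif2ak1 to Eif2ak4, Eif4e2, Eif4ebp1 and Eif4ebp2 were left out of the set and are given with the regulators. The choice by symbol gave 85 of 21652 listed genes. Of these, 74 had enough counts to be tested, and the other 11 are 10 copies of the Eif1ad family and Eif4e1b. The symbols also bring in genes that are not translation factors in the strict sense, such as the kinase and methyltransferases that act on elongation factors.

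Protein synthesis begins when eIF2, as a complex with GTP and the initiator tRNA, joins eIF1, eIF1A, eIF3 and eIF5 on the small ribosomal subunit, and when eIF4F recruits this complex to the cap of an mRNA. eIF2B recharges eIF2 with GTP and is the step that stress kinases block by phosphorylating the alpha subunit of eIF2. eEF1A then delivers aminoacyl-tRNAs, eEF2 moves the ribosome along the mRNA, and the release factors eRF1 and eRF3 end the chain at a stop codon. Many of the mRNAs for these factors carry a terminal oligopyrimidine (TOP) tract at the start of the transcript, which places their translation under the control of the kinase mTORC1.

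A start window with a pyrimidine tract is shown for the 5 members with the most counts among those in which a tract was found. The genes for eEF1A and eEF2 are textbook TOP genes, but the marked runs are not shown to be TOP tracts. The marked run began 5 bases before the annotated start in Eef1a1, at base 16 in Eef2 and at base 14 in Eif3k. The windows were read from RefSeq promoter sequences on build GRCm38.p6, and each holds 30 bases, 5′ to 3′ on the strand of the gene. Capitals mark the first pyrimidine tract found from the 5′ end, a tract being defined as a C followed only by C or T over at least 7 bases in all, read on the strand of the gene, anywhere from 10 bases before the annotated start to 30 bases after it. The windows lie at chr9:78481705-78481734 on the minus strand for Eef1a1, chr10:81176631-81176660 on the plus strand for Eef2, chr15:79075213-79075242 on the plus strand for Eif3l, chr7:108934405-108934434 on the plus strand for Eif3f and chr7:28981859-28981888 on the minus strand for Eif3k.
Eef1a1: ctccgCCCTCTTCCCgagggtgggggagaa
Eef2: gttgacgtcagcggtCTCTTCCgccgcagc
Eif3l: gagttCTTCTTCCgctctctcccacgggct
Eif3f: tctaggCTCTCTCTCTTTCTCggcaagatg
Eif3k: ggtgctgaaagcgCCTTTCCCTTTgccttc
The Eif3l window holds a further and longer run that meets the definition, left in lower case just after the marked one. Promoter sequences were found for 49 of the 85 members, all of them tested genes, and 17 of these 49 (34.7%) held a tract. The share was 19.6% of the 27025 genes with a promoter sequence and 17.2% of all 32851 promoters of the same length. Those wider sets were not limited to tested genes, so the shares are not like for like. A match is only a run of letters near an annotated start and does not show that a transcript begins there.

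Footprints were counted in 6 libraries of MIN6, a mouse insulinoma line that keeps many properties of pancreatic beta cells. Of these, 3 came from cells of genotype sgNT, taken here as a non-targeting guide, and 3 from cells of genotype sgLTN1, a guide against Ltn1, the gene of the E3 ligase Listerin, which marks nascent chains on stalled large subunits. No drug or time course is named in the labels, and whether the cells were a clone or a pool, how the nuclease was expressed and whether libraries came from separate cultures is not given in the sources used here, so a p-value here speaks only of how these libraries vary, and that variation may be technical. A count of footprints reflects both the amount of an mRNA and its occupancy by ribosomes, which cannot be told apart here, and in bulk samples fewer cells of a type cannot be told apart from less RNA per cell.

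Library totals ran from 4373467 to 11198735 counts, and the least deep were sgNT libraries 1 and 3 and sgLTN1 library 3. Values below are CPM (counts scaled to a common library size, after TMM normalization), as mean ± SD with n = 3 per group. Ltn1 itself was lower in sgLTN1, at 67.2 ± 3.67 CPM against 143 ± 1.84 CPM (log2 fold change -1.09, SE 0.07, adjusted p = 9.24e-05). All 11 beta-cell markers had counts and summed to 128850 CPM or more in each library, whereas the 5 acinar markers summed to 5.54 CPM at most, the 3 duct markers to 1.375 CPM, the 2 endothelial markers to 1.26 CPM and the 3 fibroblast markers to 10.48 CPM. The 4 markers of other islet hormones summed to 579 to 611 CPM in sgNT and 577 to 655 CPM in sgLTN1, nearly all of it Gcg. Within this list Sst was separate between the groups, at 28.9 to 31.7 CPM in sgNT and 40.5 to 47.5 CPM in sgLTN1, and so was Ppy, at 2.06 to 3.96 CPM and 4.97 to 6.95 CPM; their part in the results was not tested. The 2 leukocyte markers summed to 25.5 to 35.3 CPM, nearly all of it Cd68.

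No translation factor gene passed the test between sgLTN1 and sgNT. With edgeR's quasi-likelihood test and a Benjamini-Hochberg threshold of 0.05 over all tested genes, 0 of 74 members passed, beside 23 of 12782 genes (0.18%, of which 0.0861% higher and 0.0939% lower), and the lowest adjusted p of a member was 0.205, for Eif3j2. At an unadjusted p below 0.05 there were 7 members (9.46%), of which 2 were higher and 5 lower, against 15.6% of all tested genes (8.0% higher and 7.56% lower). Library values were fully separate between the groups for 7 members (9.46%), of which 1 was higher and 6 lower, against 20.2% of all tested genes (10.1% in each direction). Both shares of members were below those of all tested genes. The median log2 fold change was -0.01 over the members and -0.02 over all tested genes, with 40 of 74 members below 0 (54.1%) against 52.7% of all tested genes. These counts include rows that may not be independent translation factors. The members above 0 include 6 low-count Eif1ad relatives that may share reads. The only member separate and higher is Eef1ece2, whose counts are nearly those of the peptidase gene Ece2. Other settings gave no call of a member either, beside 0.329% of all genes with scaling by total counts, 0.188% without the most abundant genes, 1.06% without a filter on low counts and 4.76% with the replicate number as a block. Without 1 library the share of all genes was 0.0669%, 0.0718% and 0.09% for sgNT libraries 1 to 3, 0.0476% and 0.0317% for sgLTN1 libraries 1 and 2, and 2.47% for sgLTN1 library 3, again with 0 members. DESeq2 called 0 of the 35 members to which it gave an adjusted p, beside 8.42% of the 2697 genes with one.

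The precision allowed a bound for the abundant members. The 95% interval of the fold change lay wholly within 1.25-fold in either direction for 36 of 74 members (48.6%), against 23.4% of all tested genes. For genes of low or scattered counts the interval was wide, with a fold of 0.473 to 2.29 for Eif4e3, 0.485 to 1.77 for Eif2s3y and 0.664 to 2.51 for Eif1ad12. Intervals are those of single genes and were not widened for the number of genes. They hold for TMM scaling only and leave out the choice of normalization. With the abundance trend described further on removed, the log2 fold change was -0.14 for Eef1a1 and -0.10 for Eef2. Both lay outside their log2 intervals, which were -0.11 to 0.12 and -0.08 to 0.16.

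**Figure D1:**
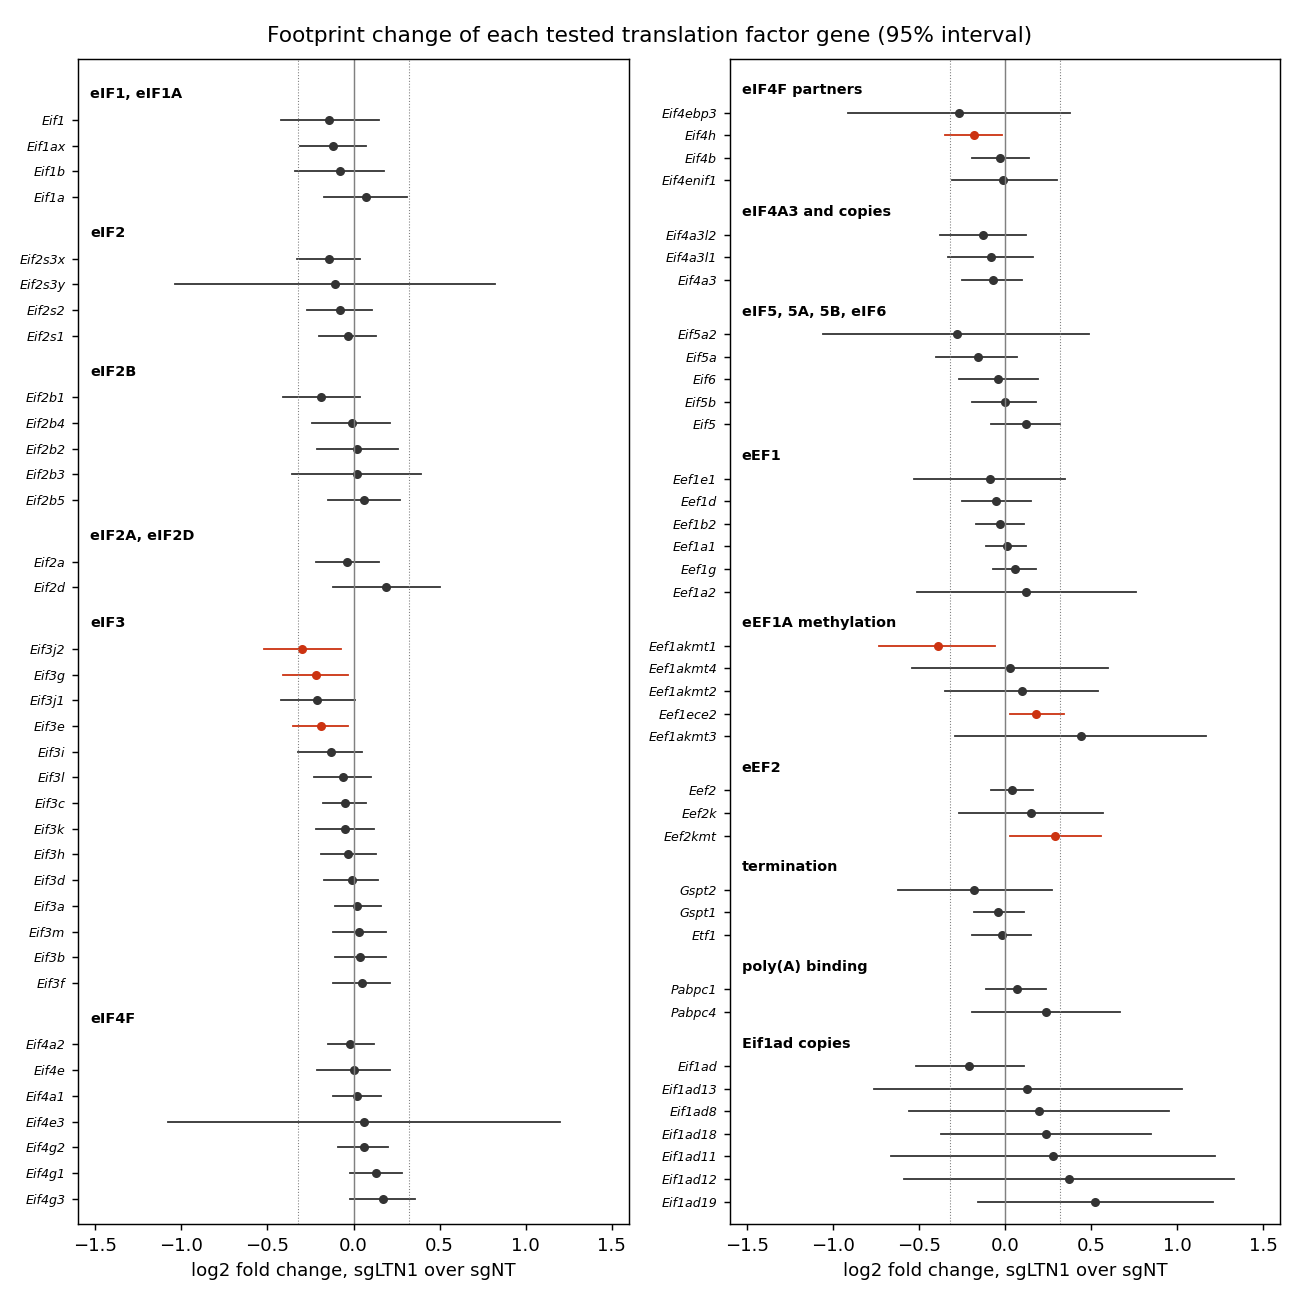
Log2 fold change of footprints, sgLTN1 over sgNT, for the 74 tested translation factor genes, ordered by complex. Points are estimates, lines are 95% intervals, red marks an unadjusted p below 0.05 (7 genes) and dotted lines mark 1.25-fold. Intervals of 36 genes lie between the dotted lines, and no gene passed the adjusted threshold.

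The factors that scan for the start codon, eIF1 and eIF1A, gave log2 fold changes between -0.14 and 0.07, with 3 of 4 genes below 0. Eif1, which guards the fidelity of start codon choice, read 12.1, 15.1 and 15.7 CPM in sgNT libraries 1 to 3 and 14.2, 12.2 and 12.9 CPM in sgLTN1 libraries 1 to 3. The groups overlapped, and the log2 fold change was -0.14 (SE 0.13, adjusted p = 0.681). Its paralogue Eif1b was at -0.08 (SE 0.12). Eif1ax, the X-linked gene of eIF1A, read 33.5, 30.9 and 33.0 CPM in sgNT and 31.3, 29.4 and 28.4 CPM in sgLTN1 (-0.12, SE 0.09, adjusted p = 0.599). Its autosomal partner Eif1a was at 0.07 (SE 0.11), or -0.01 under scaling by total counts.

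All 4 genes of eIF2, the carrier of the initiator tRNA, lay below 0, with a median log2 fold change of -0.10 and none past the test. Eif2s1, the alpha subunit that stress kinases phosphorylate, read 53.9, 52.1 and 49.6 CPM in sgNT and 52.0, 48.5 and 51.4 CPM in sgLTN1. These groups overlapped closely (-0.03, SE 0.08, 95% interval of the fold 0.868 to 1.1), and the sign turned to 0.01 without sgNT library 1 or sgLTN1 library 2. Eif2s2, the beta subunit, was at -0.08 (SE 0.09). Eif2s3x, the X-linked gamma subunit, which binds the GTP and the tRNA, read 56.8, 60.6 and 68.2 CPM in sgNT and 57.0, 56.8 and 54.0 CPM in sgLTN1. The lowest sgNT library lay inside the range of sgLTN1, and the log2 fold change was -0.14 (SE 0.08, adjusted p = 0.448). Its Y-linked copy Eif2s3y had counts in all 6 libraries at 0.760 to 2.26 CPM (-0.11, SE 0.42), with a sign that turned to 0.29 without sgLTN1 library 2.

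eIF2B, the exchange factor for eIF2, had 3 of 5 subunit genes above 0 and a median of 0.02, which was -0.06 under scaling by total counts, -0.02 without sgNT library 1 and -0.03 without either sgLTN1 library 1 or sgLTN1 library 3. The smallest p was that of Eif2b1, the regulatory alpha subunit, with 19.7, 22.5 and 22.7 CPM in sgNT and 20.04, 17.7 and 19.5 CPM in sgLTN1. Only the lowest sgNT library lay within the sgLTN1 range (-0.19, SE 0.10, adjusted p = 0.414). Eif2b5, the catalytic epsilon subunit, read 40.3, 45.0 and 43.1 CPM in sgNT and 44.9, 49.0 and 39.9 CPM in sgLTN1 (0.06, SE 0.09, adjusted p = 0.81; -0.02 under scaling by total counts). Eif2a and Eif2d, which encode initiator-tRNA-binding proteins outside the eIF2 trimer, were at -0.04 (SE 0.08; 0.05 without sgNT library 1) and 0.19 (SE 0.14).

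eIF3, the large scaffold that holds the initiation complex together on the small subunit, held 3 of the 7 members with an unadjusted p below 0.05, a level met by 15.6% of all tested genes (7.56% lower). Of its 14 genes, 10 were below 0 and 4 above, with a median of -0.05 beside -0.02 for all tested genes, and those 3 were all lower in sgLTN1. None passed over all genes. The groups did not overlap for 4 subunit genes, all lower in sgLTN1, namely Eif3c, Eif3e, Eif3j1 and Eif3j2, against 10.1% of all tested genes that were separated downward. Summed over the 14 genes, footprints were 1596, 1576 and 1561 CPM in sgNT and 1504, 1525 and 1536 CPM in sgLTN1. These TMM-scaled sums did not overlap between groups, and the highest sgLTN1 sum and the lowest sgNT sum lay close together. As shares of all counts the groups were also separate, at 0.159%, 0.163% and 0.162% in sgNT and 0.149%, 0.145% and 0.15% in sgLTN1. Such shares carry no TMM factor, and scaling without it lowered the median of all tested genes too. The median of the subunits was -0.13 under scaling by total counts, where that of all tested genes moved to -0.09, and -0.10 with the abundance trend described further on removed.

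Eif3j1 and Eif3j2 encode eIF3j, a loosely bound subunit near the mRNA channel. Eif3j2 read 19.0, 19.1 and 21.8 CPM in sgNT and 15.9, 16.8 and 15.6 CPM in sgLTN1. Every sgLTN1 library lay below every sgNT library (-0.30, SE 0.10, unadjusted p = 0.0145, adjusted p = 0.205). Eif3j1 read 22.9, 21.9 and 24.4 CPM in sgNT and 19.0, 21.2 and 19.5 CPM in sgLTN1 (-0.21, SE 0.10, adjusted p = 0.338). These genes are near-identical copies, so that reads can be exchanged between them and they are not independent of each other.

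Eif3g, an RNA-binding subunit of the mobile part of the complex, read 179, 159 and 178 CPM in sgNT and 141, 137 and 166 CPM in sgLTN1. sgLTN1 library 3 lay inside the sgNT range, and the log2 fold change was -0.22 (SE 0.08, unadjusted p = 0.0247, adjusted p = 0.244). Without that library it was -0.30 with adjusted p = 0.0599. With sgLTN1 library 1 or library 2 left out instead, no member had an adjusted p below 0.462 or 0.481, respectively. Eif3e, a PCI-domain subunit, read 70.6, 69.4 and 72.9 CPM in sgNT and 58.6, 62.9 and 65.5 CPM in sgLTN1. The groups were separate (-0.19, SE 0.07, unadjusted p = 0.027, adjusted p = 0.251). Eif3i, a WD-repeat subunit bound with Eif3g, was at -0.13 (SE 0.08).

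The scaffold subunits had small estimates. Eif3a, the longest scaffold subunit, read 305, 303 and 283 CPM in sgNT and 310, 302 and 292 CPM in sgLTN1 (0.02, SE 0.06, 95% interval of the fold 0.928 to 1.11; -0.05 under scaling by total counts and -0.06 with the trend removed). Eif3c, its core partner, read 305, 309 and 322 CPM in sgNT and 295, 304 and 302 CPM in sgLTN1, separate by a narrow margin (-0.05, SE 0.06, adjusted p = 0.703). Eif3b, which joins the mobile part to the core, was at 0.04 (SE 0.07; -0.04 under scaling by total counts), and Eif3l, which holds a pyrimidine tract, at -0.06 (SE 0.08). The remaining subunit genes, among them Eif3f and Eif3k, lay between -0.05 and 0.05.

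**Figure D2:**
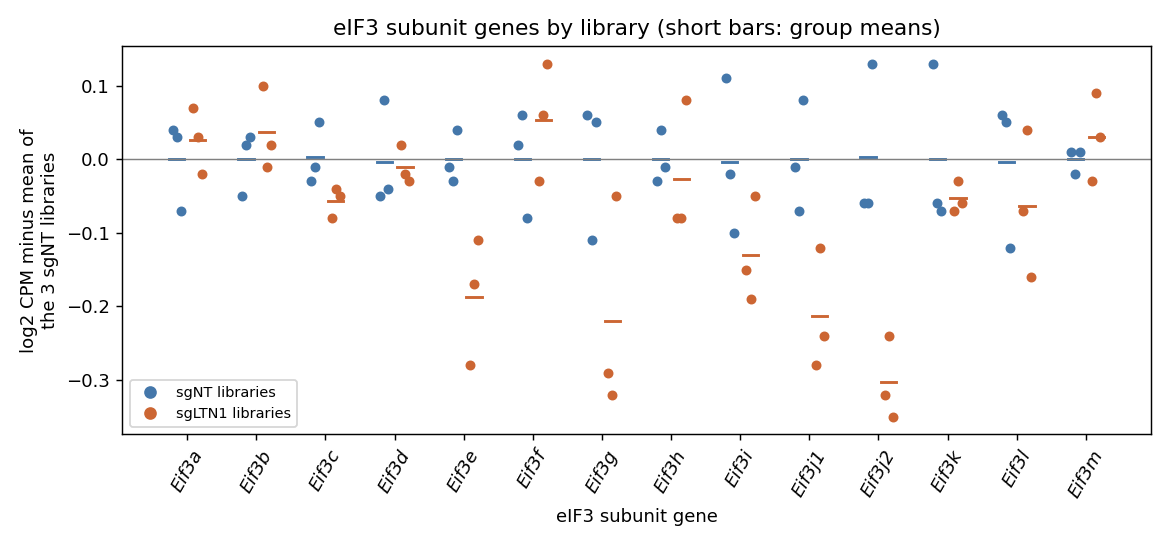
Log2 CPM of each eIF3 subunit gene in each library, minus the mean of the 3 sgNT libraries of that gene; points are libraries and short bars are group means. The sgLTN1 points of Eif3e, Eif3j1, Eif3j2 and, by a narrow margin, Eif3c lie below all sgNT points, and those of the other subunits mix with them.

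eIF4F, the cap-binding complex of the cap-binding protein eIF4E, the helicase eIF4A and the scaffold eIF4G, had 6 of 7 tested genes above 0 and a median of 0.06, but the median was 0.01 with the trend removed, -0.02 under scaling by total counts and -0.01 without sgLTN1 library 3. The 6 genes include Eif4e at 0.00 (SE 0.09) and Eif4e3 at 0.06 (SE 0.52), so the count says little about direction. Summed over its 8 genes, footprints were 1401, 1449 and 1344 CPM in sgNT and 1494, 1503 and 1463 CPM in sgLTN1. These TMM-scaled sums did not overlap, with sgLTN1 higher, and Eif4g1 made up the largest part of each. As shares of all counts the groups did overlap, at 0.14%, 0.15% and 0.139% in sgNT and 0.148%, 0.143% and 0.143% in sgLTN1. Eif4g1, the main scaffold, read 659, 682 and 591 CPM in sgNT and 720, 731 and 661 CPM in sgLTN1. In both groups library 3 was lowest, and the groups overlapped (0.13, SE 0.07, adjusted p = 0.403; 0.02 with the trend removed). Eif4g3, a second scaffold, read 154, 160 and 144 CPM in sgNT and 185, 179 and 149 CPM in sgLTN1 (0.17, SE 0.09, adjusted p = 0.376), or 0.26 with adjusted p = 0.0777 without sgLTN1 library 3. Leaving out sgLTN1 library 1 or library 2 instead gave no member an adjusted p below 0.462 or 0.481, respectively. Eif4g2, which encodes a scaffold that lacks the eIF4E-binding part, was at 0.06 (SE 0.07; -0.02 under scaling by total counts).

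Estimates for the helicase genes were near 0. Eif4a1 read 265, 283 and 295 CPM in sgNT and 275, 280 and 300 CPM in sgLTN1 (0.02, SE 0.07; -0.06 under scaling by total counts and with the trend removed, and -0.01 without sgLTN1 library 3). Eif4a2, its paralogue, was at -0.02 (SE 0.06), and at 0.02 without sgNT library 2. Eif4e, the cap-binding subunit, read 35.8, 35.4 and 35.2 CPM in sgNT and 34.9, 32.5 and 39.9 CPM in sgLTN1. The estimate was 0.00 (SE 0.09, 95% interval of the fold 0.866 to 1.16), and it was -0.07 under scaling by total counts.

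Eif4e3, an atypical cap-binding paralogue, stood out in single libraries and was chosen for mention after its values were seen. It read 11.0, 7.17 and 7.33 CPM in sgNT and 4.24, 5.10 and 20.5 CPM in sgLTN1. sgLTN1 libraries 1 and 2 lay below all sgNT libraries and sgLTN1 library 3 above all of them. The log2 fold change was 0.06 (SE 0.52, adjusted p = 0.979) over all 6 libraries. Without sgLTN1 library 3 it was -0.83, but the gene was picked for its value in that library. The second estimate is therefore a description and not a test.

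All 4 tested partners of eIF4F were below 0, with a median of -0.10. Of these, Eif4enif1 was at -0.01 (SE 0.14) and turned to 0.02 with the trend removed, which left 3 of 4 below 0. Eif4h, which stimulates the helicase, read 86.9, 96.9 and 100.1 CPM in sgNT and 87.0, 81.0 and 82.2 CPM in sgLTN1. The lowest sgNT library fell just inside the sgLTN1 range (-0.18, SE 0.08, unadjusted p = 0.0351, adjusted p = 0.279). Eif4b, a relative with the same role, was at -0.03 (SE 0.07). Eif4ebp3, a repressor that binds eIF4E, had 1.83 to 3.88 CPM over the 6 libraries (-0.27, SE 0.29). Eif4a3, the helicase of the exon junction complex and not of eIF4F, was at -0.07 (SE 0.08), and its intronless relative Eif4a3l2, which can exchange reads with it, at -0.13 (SE 0.11).

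Of the factors that join the subunits and act on the ribosome, 4 of 5 genes were below 0, with a median of -0.04. Eif5a, whose protein carries the amino acid hypusine and relieves stalls at proline runs, read 108, 129 and 153 CPM in sgNT and 118, 110 and 121 CPM in sgLTN1. The 3 sgNT libraries spread more widely than the sgLTN1 libraries and enclosed them (-0.16, SE 0.11, adjusted p = 0.509). Eif5, the GTPase activator of eIF2, was at 0.12 (SE 0.09), Eif5b, the GTPase of subunit joining, at 0.00 (SE 0.09), and Eif6, which keeps the large subunit from joining too early, at -0.04 (SE 0.10; 0.05 without sgLTN1 library 1).

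The elongation factors eEF1A and eEF2 were the most counted genes of the set and had estimates near 0. Eef1a1 read 1910.3, 1984 and 1869 CPM in sgNT and 1895, 1896 and 1998 CPM in sgLTN1. The groups overlapped throughout, and the log2 fold change was 0.01 (SE 0.05, adjusted p = 0.979, 95% interval of the fold 0.927 to 1.09). It was -0.07 under scaling by total counts, -0.14 with the trend removed and -0.01 without sgNT library 3 or sgLTN1 library 3. Eef2 read 1435, 1498 and 1405 CPM in sgNT and 1437, 1548 and 1477 CPM in sgLTN1 (0.04, SE 0.05, adjusted p = 0.778, 95% interval of the fold 0.947 to 1.12), or -0.03 under scaling by total counts and -0.10 with the trend removed. Together these genes took 38.8% to 40.2% of all translation factor counts in each library. All members together took 0.876% ± 0.0291 of all counts in sgNT and 0.839% ± 0.0124 in sgLTN1, with sgNT library 1 (0.847%) below the highest sgLTN1 library (0.848%).

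The other subunits of eEF1, which recharge eEF1A with GTP, also had small estimates. Eef1g, the structural gamma subunit, read 462, 503 and 466 CPM in sgNT and 492, 503 and 494 CPM in sgLTN1 (0.06, SE 0.06, adjusted p = 0.695; -0.02 under scaling by total counts and -0.04 with the trend removed). Eef1b2, an exchange subunit, was at -0.03 (SE 0.06) and Eef1d, the other exchange subunit, at -0.05 (SE 0.09; 0.01 without sgNT library 2). Eef1e1, whose protein belongs to the multi-synthetase complex despite its symbol, was at -0.09 (SE 0.20; 0.05 without sgLTN1 library 2).

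Of the genes for enzymes that modify the elongation factors, Eef1akmt1 and Eef2kmt had an unadjusted p below 0.05, as did 15.6% of all tested genes. Eef1akmt1, a lysine methyltransferase of eEF1A, read 8.25, 9.03 and 9.92 CPM in sgNT and 6.95, 6.52 and 7.40 CPM in sgLTN1. The groups were separate, with sgLTN1 lower (-0.39, SE 0.15, unadjusted p = 0.0244, adjusted p = 0.243). Eef2kmt, the methyltransferase of eEF2, read 17.2, 18.6 and 17.0 CPM in sgNT and 21.0, 24.8 and 18.5 CPM in sgLTN1, with sgLTN1 library 3 inside the sgNT range (0.29, SE 0.12, unadjusted p = 0.0337, adjusted p = 0.275). Eef2k, the kinase that inhibits eEF2, was at 0.15 (SE 0.19).

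Eef1ece2 is a readthrough gene that joins Eef1akmt4 to Ece2, an endothelin-converting peptidase. It read 65.1, 66.7 and 66.4 CPM in sgNT and 78.1, 73.9 and 72.9 CPM in sgLTN1, with sgLTN1 higher in 3 of 3 libraries (0.18, SE 0.07, unadjusted p = 0.0229, adjusted p = 0.236). Ece2 itself read 64.0, 66.7 and 66.4 CPM in sgNT and 77.5, 73.3 and 72.7 CPM in sgLTN1, so that nearly the same counts were listed for both genes. The value of this member therefore cannot be told apart from that of the peptidase gene.

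All 3 release factor genes were below 0, with a median of -0.04. Etf1, the gene of eRF1, which reads the stop codon, had 52.9, 57.2 and 54.4 CPM in sgNT and 55.6, 51.8 and 55.3 CPM in sgLTN1 (-0.02, SE 0.08, 95% interval of the fold 0.878 to 1.11; 0.03 without sgNT library 2 or sgLTN1 library 2). Gspt1, the gene of the partner GTPase eRF3, had 144, 136 and 142 CPM in sgNT and 143, 134 and 133 CPM in sgLTN1 (-0.04, SE 0.06, adjusted p = 0.839). Gspt2, its intronless paralogue, was separate between groups at 4.36, 4.33 and 4.10 CPM against 3.61, 4.02 and 3.70 CPM (-0.18, SE 0.20, adjusted p = 0.751). Pabpc1, which coats the poly(A) tail and binds eIF4G, read 187, 190 and 163 CPM in sgNT and 193, 199 and 173 CPM in sgLTN1. Library 3 was lowest in both groups, and the groups overlapped (0.07, SE 0.08, adjusted p = 0.738; -0.01 under scaling by total counts). Pabpc4 was at 0.24 (SE 0.19).

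**Figure D3:**
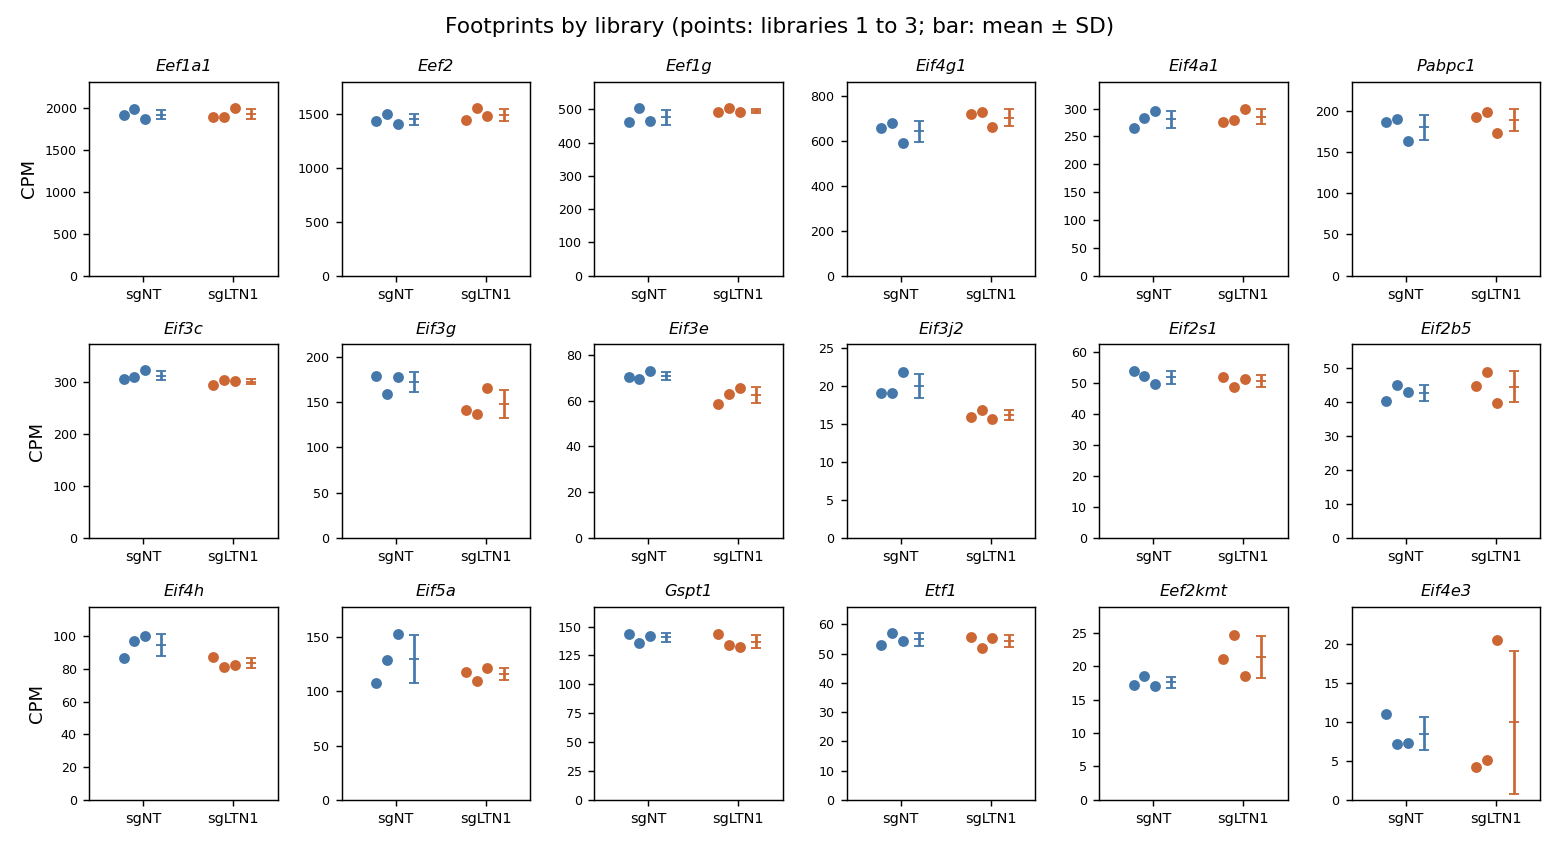
Footprints in CPM of 18 translation factor genes; points are libraries 1 to 3 of each group, bars are mean ± SD, and each axis starts at 0. The groups overlap for most genes, sgLTN1 lies below sgNT for Eif3c, Eif3e and Eif3j2, and the 3 sgLTN1 libraries of Eif4e3 spread from 4.24 to 20.5 CPM.

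The Eif1ad symbols cover Eif1ad, the gene of an eIF1A-domain protein, and 16 numbered relatives, of which 6 were tested. Eif1ad read 13.1, 15.7 and 17.5 CPM in sgNT and 14.7, 11.6 and 14.0 CPM in sgLTN1 (-0.21, SE 0.14, adjusted p = 0.533). The 6 tested relatives lay between 0.13 and 0.52, led by Eif1ad19 (SE 0.31, adjusted p = 0.453), at means of 1.61 to 3.36 CPM. Reads may be exchanged among such copies, so these 6 estimates may not be independent of each other. The 10 relatives without a test held 2 to 52 counts each over the 6 libraries, and Eif1ad2 and Eif1ad6 were listed with identical counts in all 6, so that their reads cannot be told apart. The last member without a test, the oocyte gene Eif4e1b, held 12 counts.

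In each of the 9 paralogue sets, the share of counts taken by each gene overlapped between the groups. These are shares of counts, not corrected for gene length, so they are compared between libraries only. Eef1a2, the muscle and neuron form of eEF1A, held 0.112% ± 0.0279 of the Eef1a1 and Eef1a2 counts in sgNT and 0.12% ± 0.0104 in sgLTN1. Eif5a2 held 1.98% ± 0.528 and 1.83% ± 0.798 of the Eif5a and Eif5a2 counts, Pabpc4 2.74% ± 0.336 and 3.10% ± 0.553 of the poly(A)-binding protein counts, and Eif2s3y 2.76% ± 0.4 and 2.93% ± 1.40 of the eIF2 gamma counts. Eif4a2 held 30.6% ± 1.55 and 30.3% ± 0.207 of the counts of Eif4a1, Eif4a2 and Eif4a3, and Eif1b 61.5% ± 0.639 and 62.6% ± 2.55 of those of Eif1 and Eif1b.

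Members with and without a pyrimidine tract near an annotated start had similar medians. This split does not sort genes by TOP status, since any such run near the start was taken. It covers only the 49 of 85 members with a promoter sequence, and Pabpc1 and Eef1g are among those without one. Whether TOP genes differ from the others was not tested. Over the 17 tested members with a tract the log2 fold changes had a median of 0.00, 8 of them below 0, and over the 32 without one a median of -0.03, 20 of them below 0. Among the genes whose windows are printed above, the values ran from -0.06 for Eif3l to 0.05 for Eif3f.

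Fold changes over the whole table moved with abundance, and the medians of the translation factors did not follow that order. The median log2 fold change of all genes above 8 on the log2 CPM scale was 0.14 (505 genes), where the 7 members had a median of 0.02. Between 6 and 8 it was 0.04 for all 1521 genes and -0.02 for the 18 members, of which 11 were below 0. Below 2 it was -0.11 for all 2195 genes and 0.17 for the 12 members, 6 of which are Eif1ad copies that may share reads. With the trend removed, 0 members passed beside 0.156% of all genes, 44 of 74 were below 0, and the median was -0.04 against 0.00 for all tested genes.

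**Figure D4:**
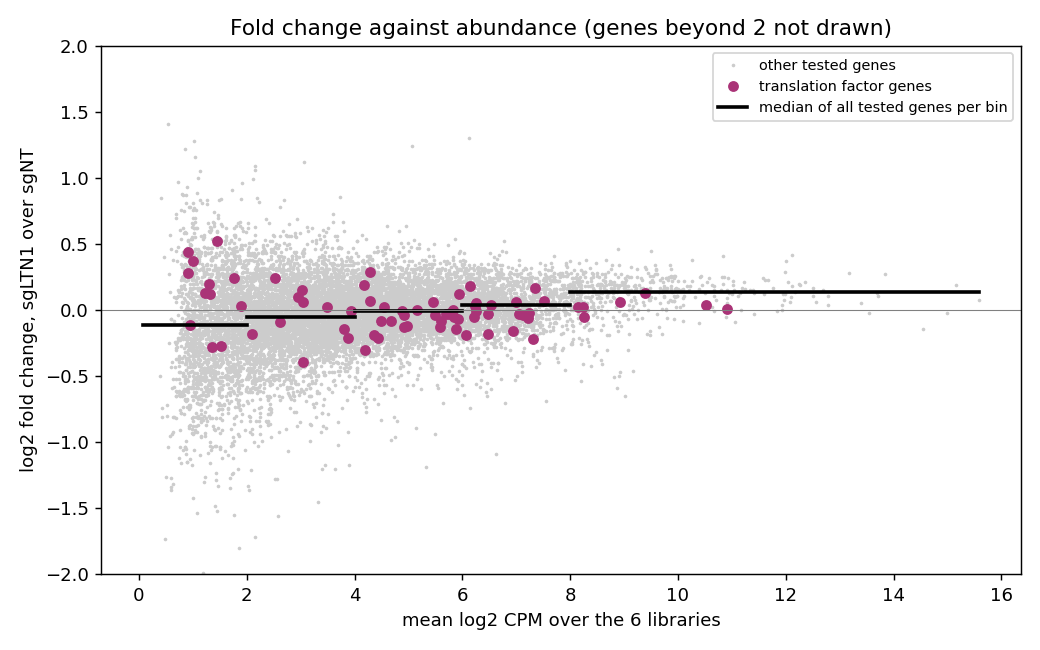
Log2 fold change, sgLTN1 over sgNT, against mean log2 CPM for all tested genes (grey) and the 74 translation factor genes (purple); black bars are medians of all tested genes per bin. The bars climb from -0.11 to 0.14, and the members above 8 have a median of 0.02.

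Genes that regulate or modify the factors were compared as 3 further lists, and none of their members passed. The list of kinases, phosphatase subunits, binding proteins and modifying enzymes had 33 tested genes, 19 above 0, with a median of 0.01 and 2 at an unadjusted p below 0.05. Over all tested genes that share was 15.6%, and it serves for the counts of the other lists too. Ppp1r15a, the stress-induced subunit that directs dephosphorylation of eIF2 alpha, averaged 13.9 ± 2.5 CPM over sgNT libraries and 9.30 ± 1.52 CPM over sgLTN1 libraries, without overlap (-0.60, SE 0.17, unadjusted p = 0.00464, adjusted p = 0.152). Eif2ak3, the eIF2 alpha kinase PERK of the endoplasmic reticulum, averaged 71.4 ± 7.45 and 86.8 ± 5.23 CPM, also without overlap (0.29, SE 0.09, unadjusted p = 0.00728, adjusted p = 0.168). Of all tested genes, 20.2% were without overlap. Ppp1r15b, the other phosphatase subunit of this kind, was separate in the opposite direction to Ppp1r15a (0.10, SE 0.06, adjusted p = 0.523). The kinase Eif2ak4 was separate and higher (0.25, SE 0.15), whereas Eif2ak1 (-0.16, SE 0.10) and Eif2ak2 (-0.12, SE 0.14) overlapped. The 10 mitochondrial translation factor genes had a median of 0.00, with 5 above 0, 1 at an unadjusted p below 0.05, and the smallest p for the release factor paralogue Mtrf1 (-0.53, SE 0.22, adjusted p = 0.288) and the elongation factor Gfm2 (0.19, SE 0.10). The 13 accessory genes had a median of -0.04, with 4 above 0 and 0 at an unadjusted p below 0.05, led by the recycling factor Abce1 (-0.14, SE 0.07, adjusted p = 0.392) and the selenocysteine factor Secisbp2 (-0.38, SE 0.29).

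In the authors' deposited table, which holds DESeq2 results of the same contrast, 35 members have an adjusted p and none is below the threshold, beside 227 of 2697 genes (8.42%). Eif3g has the lowest value there, with a log2 fold change of -0.20 (SE 0.10), an unadjusted p of 0.0433 and an adjusted p of 0.183 in the authors' deposited table, and it is the only member with an unadjusted p below 0.05. The authors' deposited table gives 0.03 (SE 0.07) for Eef1a1 and 0.06 (SE 0.07) for Eef2. The DESeq2 alternative above gave the same 35 members and 227 genes for the same libraries, so it is not separate support.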

How the data were processed

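The authors deposited read counts per gene as whole numbers (1 column per library, with gene identifiers and symbols) and a table of DESeq2 results. Per the file headers, the deposited results table holds a log2 fold change, its standard error, a mean normalized signal, a Wald score, and a p-value with its adjusted form. Per the submitters' processing notes, Bowtie2 2.5.4, DESeq2 1.38.3, fastp 0.23.4, featureCounts 2.12.3, SAMtools 1.9, STAR 2.7.11a and UMI-tools 1.1.2 were used with GRCm39. For roles, strand and reads with several alignments, the setting is not given in the sources used here, so counts of near-identical or overlapping genes are uncertain.

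Groups came from the genotype labels. All 6 libraries share 1 batch label. Genes were filtered with filterByExpr (12782 kept), scaled by TMM (factors 0.954 to 1.04) and tested with edgeR 4.0.16 (quasi-likelihood, limma 3.58.1, R 4.3.3), group as the only term, Benjamini-Hochberg over all tested genes. Standard errors come from the test statistic. Intervals are 95%. The abundance trend was removed by a loess of each library against the mean (span 0.5). DESeq2 1.42.0 was an alternative. The fit was tested on simulated data.

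Named genes are, per complex, the 2 with the smallest p and the 1 with the most counts, the paralogue sets, and the 2 with the smallest p of each further list. The targeted gene Ltn1 is named too. Eif4e3, Eif3a, Eif3b, Eif3e, Eif3f, Eif3i, Eif3j1, Eif3k, Eif3l, Eif2s1, Eif4e, Eif4b, Eif4e1b, Eif5b, Eif6, Eif1ad2, Eif1ad6, Eif1ad12, Eef1akmt4, Eef1b2, Eef1e1, Etf1 and Ece2 were added after values were seen. Ppp1r15b, Eif2ak1, Eif2ak2, Eif2ak4 and Eif4enif1 were added in the same way. The members and lists were chosen with earlier results of these data known. Lengths of coding sequences were not used here, so levels of different genes are not compared. Every pair of replicate libraries differed by more than counting noise (chi-square per degree of freedom at least 2.61), so none was treated as a library deposited again. This does not show that they came from separate cultures.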

Additional observations from a re-analysis of the deposited data

How the results depend on the processing

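No translation factor gene passed the threshold under any of the 12 alternatives run, while the number of all genes that passed went from 23 (11 higher, 12 lower) to 42 with scaling by total counts (8 higher, 34 lower), 20 with the abundance trend removed (7 higher, 13 lower), 222 without a filter on low counts, 227 with DESeq2 (183 higher, 44 lower) and 4 (without sgLTN1 library 2) to 333 (without sgLTN1 library 3) when 1 library was left out. With the replicate number as a block, 609 genes passed (4.76%, 406 higher and 203 lower) and 0 of 74 members, the lowest adjusted p being 0.0557 for Eif3g. What the shared replicate numbers mean is not given in the sources used here. Deviations of same-numbered libraries correlated at -0.05, 0.07 and 0.09, and those of other pairs between the groups at -0.12 to 0.10. With so few libraries these values cannot show whether libraries were paired. Under scaling by total counts the medians were -0.09 for all members, -0.09 for eEF1, -0.13 for eIF3, -0.18 for the eIF4F partners, -0.02 for eIF4F, -0.11 for eIF5 to eIF6 and -0.11 for the release factors, where all genes moved from -0.02 to -0.09. With the trend removed they were -0.06 for eEF1, -0.10 for eIF3, 0.01 for eIF4F and -0.09 for the release factors. With 1 library left out, medians ranged from -0.06 to -0.02 for eIF3, -0.02 to 0.04 for eEF1, 0.05 to 0.35 for Eef2 with its enzymes, -0.01 to 0.09 for eIF4F and -0.10 to -0.02 for eIF5 to eIF6; the causes were not tested. Of the 56 members followed singly, 22 changed sign in at least 1 alternative, none of them past the threshold. Genes of low count, such as the Eif1ad copies, are limited by depth.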

Other observations

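Eif4e3 was the only translation factor gene among 22 tested genes that read at least 8 CPM in sgLTN1 library 3 and more than 1.8 times the value of every other library. The same count was 25 genes for sgNT library 3, 14 for sgNT library 2, 2 for sgLTN1 library 1, 1 for sgNT library 1 and 0 for sgLTN1 library 2, with 0 translation factor genes among them. Of the 22 genes, 7 had the order of libraries seen in Eif4e3, with sgLTN1 library 3 highest, sgNT library 1 next, then the other sgNT libraries, and sgLTN1 libraries 1 and 2 lowest. Il27ra, an interleukin receptor gene, read 25.9, 15.5 and 15.7 CPM in sgNT and 3.97, 5.21 and 58.4 CPM in sgLTN1. The transcription factor gene Klf7 read 17.2, 9.77 and 7.98 CPM in sgNT and 3.97, 4.89 and 31.2 CPM in sgLTN1. The other 4 were Enox1, Fgf6, Prdm15 and Sh2d2a. Over all tested genes, 113 had this order of libraries. These genes were picked by their values, and no cause was tested.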
